A study of Mus musculus with 778 samples.

Results

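Among the genes that mouse oocytes express before growth begins, 167 were low in mid-growth oocytes and partly back in fully-grown ones. They were chosen by their measured values. The values are counts of unique molecular identifiers (UMIs, random tags that let each captured RNA molecule be counted once), added up over all oocytes of a class and scaled to counts per 1000000 (CPM). A gene was taken when non-growing oocytes (NGO) had at least 50 CPM, growing oocytes of the middle class (GO2) had at most NGO/4, and fully-grown oocytes (FGO) had at least NGO/3. Of the 23201 genes in the count table, 3688 had at least 50 CPM in NGO, and 167 of these, 4.53%, met the rule. The levels in NGO, GO2 and FGO chose the genes, so their fall and return are given as a description, with no test. The levels in GO1 and GO3, the early and late growing classes, were not used by the rule.

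The series profiled single oocytes of female ICR mice, an outbred stock, with no treatment and no genetic change in any group, and the RNA part holds 223 oocytes of 5 classes by diameter. The 46 NGO cells measured under 20 μm and came from mice 3 to 4 days old, whereas the 51 GO1 (30 to 45 μm), 26 GO2 (50 to 55 μm), 44 GO3 (60 to 65 μm) and 56 FGO cells (over 70 μm) came from mice 3 to 4 weeks old. Stage and age cannot be told apart in any comparison with NGO. The cells were sequenced in 4 libraries, titled as batches, and the name of a cell gives its class but not its library. Each class was therefore 1 pooled sample without replicates. Differences between classes cannot be told apart from differences between these batches. Between 22279 and 3898137 UMIs were counted per cell, and the sums of GO1 and GO2 rest on few cells, since 10 oocytes supplied 80.4% and 73.2% of them. All 15 oocyte identity genes examined, such as *Zp3* and *Gdf9*, had at least 10 CPM in every class. Markers of other ovarian cells were examined in the sums of the classes. The 20 granulosa cell markers summed to between 372 and 542 CPM, nearly all of it *Serpine2*, the 13 stromal and theca markers to between 5.53 and 15.5 CPM, and the 15 blood, immune and endothelial markers to between 8.33 and 51.5 CPM. A few single markers were higher in the growing classes than in NGO, where the 167 genes were lower. *Cyp19a1*, the aromatase gene of granulosa cells, had 1.11, 16.3, 13.3, 6.70 and 1.54 CPM from NGO to FGO, and the endothelial marker *Pecam1* had 4.60, 37.6, 40.4, 48.8 and 26.7 CPM. The other endothelial markers, *Cdh5*, *Kdr*, *Tek* and *Vwf*, had at most 4.19 CPM in any class. No marker on these lists was among the 167 genes. A CPM value is a fraction of what was captured from a class, and oocytes grow manyfold in volume between these classes, so CPM says nothing of molecules per oocyte.

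Oocytes rest in primordial follicles as small cells arrested in meiotic prophase. Once recruited they grow while transcribing actively, store messenger RNA for the egg and early embryo, and fall transcriptionally silent when fully grown. Stored transcripts are kept or removed through their poly(A) tails and the proteins bound to their 3′ ends, so the messages of a fully-grown oocyte need not mirror recent transcription. Oocyte growth is also the period in which the maternal genome gains its DNA methylation.

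Of all UMIs, the 167 genes took 3.76% in NGO and 0.788% in GO1. From GO2 onwards the share was 0.694% (GO2), 1.01% (GO3) and 1.71% (FGO). Most of the fall had occurred by the first growing class, and the return was gradual and partial. In single cells the summed level ran from 32318 to 42422 CPM in NGO (median 38243), from 4505 to 12109 in GO1 (median 6883) and from 2418 to 9266 in GO2 (median 5950.4). It then ran from 7726 to 13151 CPM in GO3 (median 9818) and from 11800.2 to 30520.1 in FGO (median 18159.7). Every NGO cell stood above every cell of the other classes. All 56 FGO cells stood above every GO2 cell, 55 of the 56 above every GO1 cell and 54 of the 56 above every GO3 cell. GO1 and GO2 cells overlapped widely, and 31 of the 44 GO3 cells exceeded every GO2 cell. Spearman's rho between the summed level and the UMIs of a cell was 0.638 over the 26 GO2 cells, 0.106 over the 44 GO3 cells and -0.371 over the 56 FGO cells, and the part of depth in the result was not tested. Over the same FGO cells, rho between the summed level and the sum of the blood, immune and endothelial markers was -0.698. *Pecam1* alone held 26.7 of the 28.8 CPM of these markers in FGO. For stromal and theca markers rho was -0.445, for granulosa markers -0.347 and for the oocyte identity genes, which include the member *Ddx4*, 0.550. With the identity genes it was -0.424 in NGO, 0.545 in GO1, 0.845 in GO2 and 0.570 in GO3. The part of these marker sums was not tested either. The plot of the summed level in single oocytes shows both the gap below NGO and the wide spread of FGO.

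**Figure D1:**
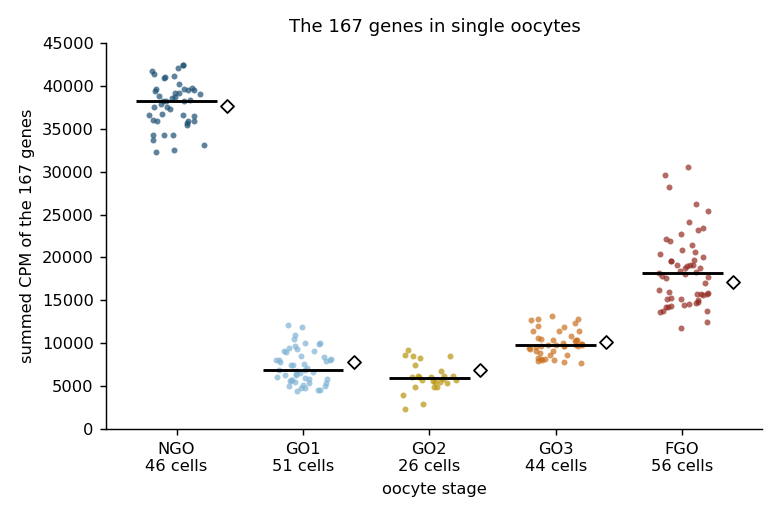
Summed CPM of the 167 genes in each single oocyte (points, jittered sideways) by class, with the median over cells (bar) and the value of the pooled class (open diamond). The 46 NGO cells lie at 32318 CPM or more with no overlap with any other class, GO1 and GO2 cells lie lowest and overlap, and FGO cells spread from 11800.2 to 30520.1 CPM.

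The 12 genes highest in NGO held much of this level. Without them the rest summed to 23258, 4689, 4129, 6343 and 10474 CPM from NGO to FGO. Since each gene met the limits by itself, any such sum has to fall and return. To compare how many of the genes a cell showed, each cell was thinned to 20000 UMIs, and no cell was lost by this. The median oocyte then had a UMI of 83.8% of the 167 genes in NGO, 36.5% in GO1 and 33.8% in GO2. Afterwards it had a UMI of 50.9% of them in GO3 and 62.3% in FGO. With all UMIs the medians were 100% in NGO, GO3 and FGO, 68.9% in GO1 and 97.01% in GO2, so the genes were scarcer in mid-growth but seldom absent from a deeply sequenced cell.

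The rule did not use GO1, but it used NGO, against which GO1 is set here. In GO1 the summed level was 20.95% of NGO. Each of the 167 genes had a GO1 level at least 2-fold below NGO, with at least 10 CPM in NGO, a size reached by 25.7% of all genes tested in this step. It was also reached by every gene with the same NGO and GO2 limits that stayed under NGO/3 in FGO, so nothing particular to the returning genes is read from it. The single genes stood at 5.72% to 45.2% of NGO in GO1 (median 19.9%), and 75.4% of them would have met the NGO/4 limit there. From GO1 to GO2 most of the genes moved by less than 2-fold. Of the members with 10 CPM in either class, 3 fell by 2-fold or more (1.96%), beside 3.03% of all genes and 0.442% of those with 50 CPM in NGO. GO2 was the lowest class for 71.3% of the genes, GO1 for 45 genes and GO3 for 3.

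GO3, also unused by the rule, fell between GO2 and FGO for most of the genes. GO3 exceeded GO2 in 160 of the 167 and FGO exceeded GO3 in 164, and 94.01% of the genes showed GO2 below GO3 below FGO. The summed level rose 1.46-fold from GO2 to GO3 and 1.69-fold from GO3 to FGO (95% counting intervals 1.45 to 1.46 and 1.69 to 1.70, counting error only). In 74.3% of the genes more of the increase came after GO3 than before it. Increases of 2-fold or more were seen in 38 of 164 genes from GO2 to GO3 and in 36 of 167 from GO3 to FGO, beside 3.34% and 2.41% of all genes. Both shares carry the choice of genes low in GO2 and higher in FGO. In the sums no gene returned to its NGO level, and 41 genes reached NGO/2 or more. The median over single cells was higher in FGO than in NGO for *Commd4* (146.8 against 142.2 CPM), *Gon7* (23.2 against 18.7 CPM) and *Selenos* (81.3 against 62.98 CPM), named after their values had been seen. In the sums *Gon7* stood at 41.4% of NGO in FGO, and only 41.3% of thinned NGO cells had a UMI of it. *Gon7* met the rule with the mean over cells and DESeq2 size factors but under no other alternative weighting or scaling.

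**Figure D2:**
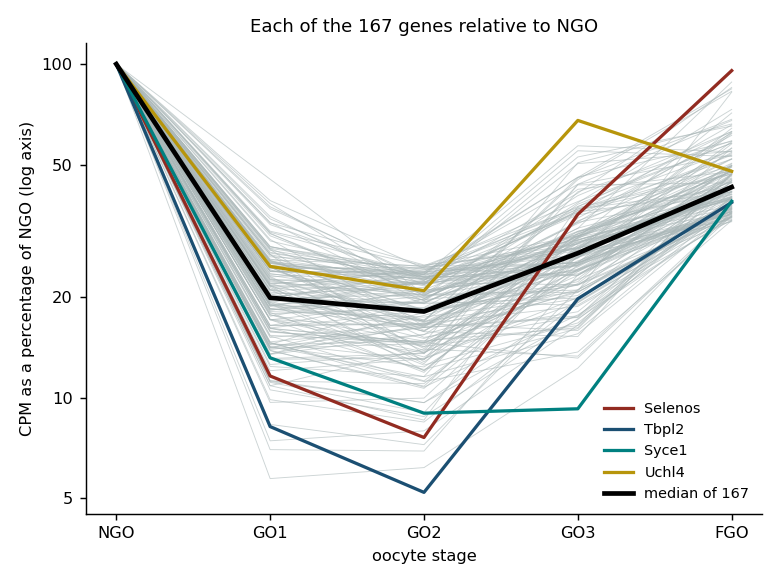
CPM of each of the 167 genes as a percentage of its NGO level (log axis) across the 5 classes (grey lines), with the median gene in black and *Selenos*, *Tbpl2*, *Syce1* and *Uchl4* in colour. The median gene fell to 19.9% in GO1 and 18.1% in GO2, then stood at 27.1% in GO3 and 42.8% in FGO. In FGO *Selenos* came closest to NGO, and among the classes after NGO *Uchl4* was highest in GO3.

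The members with the most UMIs in NGO are described first. *Ppia* (chr11:6315446-6319820, plus strand, build NCBIM37, as for all gene positions) encodes cyclophilin A, a prolyl isomerase that helps proteins fold. It had 1455 to 3905 CPM (median 2656) in single NGO cells, 105.8 to 738 CPM (median 321) in GO2 cells and 656 to 2306 CPM (median 1352) in FGO cells. The NGO and GO2 cells did not overlap, and 54 of 56 FGO cells exceeded every GO2 cell. In the sums *Ppia* had 2648, 469, 391, 669 and 1147 CPM from NGO to FGO, a 2.93-fold (95% counting interval 2.87 to 2.99) return from GO2. *Hsp90ab1* (chr17:45704724-45710220, minus strand), the constitutive cytosolic HSP90 chaperone, had 1906, 481, 432, 475 and 957 CPM and stayed flat until GO3. Its single cells held 1182 to 2682 CPM (median 1956) in NGO, 259.9 to 803 CPM (median 463) in GO3 and 429 to 2239 CPM (median 1049) in FGO, so the classes GO3 and FGO overlapped although 55 of 56 FGO cells exceeded the GO3 median. *Ran*, the small GTPase that drives nuclear transport, had 1425, 312, 344, 524 and 739 CPM, and every FGO cell exceeded every GO2 cell. The creatine kinase gene *Ckb*, which buffers cellular ATP, had 1206, 238, 222, 317 and 599 CPM.

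*Ube2c* (chr2:164595398-164604322, plus strand), the ubiquitin-conjugating enzyme that works with the anaphase-promoting complex in meiosis and mitosis, came back further than most genes of this abundance. It had 1037, 269.9, 234, 292 and 649 CPM, and FGO was 62.6% of NGO. In single cells it held 666 to 1431 CPM (median 1010.3) in NGO, 60.6 to 346 CPM (median 204) in GO2, 179.8 to 523 CPM (median 294) in GO3 and 336 to 1388 CPM (median 720.2) in FGO. All 56 FGO cells exceeded the GO3 median, and 23 of them lay below every NGO cell. *Eef1a1*, the translation elongation factor that brings aminoacyl-tRNA to the ribosome, had 1042, 384, 239, 292 and 412 CPM. *Pabpc4*, a cytoplasmic poly(A)-binding protein, had 635, 157.7, 146.3, 148.2 and 234 CPM, one of the smaller returns. The ribosomal protein gene *Rps23* went from 122.2 CPM in GO2 to 439.8 in FGO, and the ferritin light chain gene *Ftl1* from 181 to 461. *Actb* (cytoplasmic actin) had 710.2, 121.6, 137.5, 202 and 285 CPM, and *Pdia3*, a disulfide isomerase of the endoplasmic reticulum, had 621, 123.3, 147.3, 175 and 293 CPM. With *Uhrf1*, described next, these were the 12 members highest in NGO, and each was below NGO in all later classes. Of these, *Hsp90ab1*, *Ran*, *Ube2c*, *Eef1a1*, *Pabpc4* and *Pdia3* did not meet the rule when the sums were scaled by DESeq2 size factors or by TMM, the trimmed mean of M-values of edgeR.

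Genes of the chromatin machinery took part, among them *Uhrf1* and *Kdm1b*, which act on the methylation of DNA and histones. *Uhrf1* (chr17:56442744-56462909, plus strand), which binds hemimethylated DNA and recruits the maintenance methyltransferase, had 1169, 300.3, 214, 254 and 396 CPM. Single cells ranged over 616 to 1559 CPM (median 1146) in NGO, 65.3 to 379.6 CPM (median 152.01) in GO2, 109.2 to 535 CPM (median 182) in GO3 and 108.2 to 958 CPM (median 273) in FGO. Its return was small, 1.85-fold (95% counting interval 1.79 to 1.90) over GO2, and GO2, GO3 and FGO cells overlapped. *Uhrf1* lay just inside the FGO limit at 33.9% of NGO and did not meet the rule under any of 5 other weightings of the cells. *Kdm1b* (chr13:47138868-47179982, plus strand), a histone H3 lysine demethylase needed in oocytes for maternal imprints, had 361, 96.9, 46.2, 95.2 and 125.96 CPM and was lowest in GO2. In GO1 its cells spread over 0 to 365 CPM (median 92.6), against 0 to 94.6 CPM (median 37.2) in GO2 and 56.6 to 292 CPM (median 122.6) in FGO. *Hdac1*, a histone deacetylase, had 86.5, 12.2, 14.1, 15.2 and 35.9 CPM, and *Prmt5*, an arginine methyltransferase of histones and germ cell proteins, had 53.6, 11.8, 8.45, 8.17 and 26.5 CPM. The other chromatin genes included *Cbx3* (heterochromatin protein 1 gamma), *Parp1* and *Parg*, which make and remove poly(ADP-ribose), and *Dpf2* and *Dpf3*, subunits of chromatin remodelling complexes. *Dpf2* returned to 68.3% of NGO and *Dpf3* to 35.1%.

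A few genes known for germ cell functions belonged to the set. *Ddx4* (chr13:113388541-113442518, minus strand), the Vasa RNA helicase that marks germ cells, was the single member among the 15 oocyte identity genes. It had 342, 65.2, 58.5, 129.9 and 198 CPM, with single cells at 156.8 to 442 CPM (median 335) in NGO, 0 to 116.7 CPM (median 37.8) in GO2 and 25.1 to 277 CPM (median 168) in FGO. NGO and GO2 cells did not overlap, and 47 of 56 FGO cells exceeded every GO2 cell. *Tbpl2* (chr2:23927241-23952115, minus strand), the oocyte form of the TATA-binding protein, had 177, 14.5, 9.21, 35.04 and 68.1 CPM. Its level in GO2 was 5.20% of NGO, the lowest of the 167, and it returned 7.40-fold (95% counting interval 6.48 to 8.49). GO2 cells held 0 to 21.03 CPM (median 4.90), with 5 of 26 at 0, GO3 cells 9.81 to 75.2 CPM (median 35.2) and FGO cells 5.87 to 197 CPM (median 70.2). *Syce1* (chr7:147963128-147973753, minus strand), a central element protein of the synaptonemal complex that holds paired chromosomes in meiotic prophase, came back only at the end. It had 79.8, 10.5, 7.17, 7.39 and 30.96 CPM, a 4.19-fold (95% counting interval 3.75 to 4.70) rise after GO3, the steepest in the set. FGO cells spread over 2.58 to 192 CPM (median 36.9), and 53 of 56 exceeded the GO3 median. *Ddx6*, a helicase of cytoplasmic RNA granules, had 127.2, 36.1, 27.9, 66.98 and 82.9 CPM and by GO3 was already at 52.7% of NGO.

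**Figure D3:**
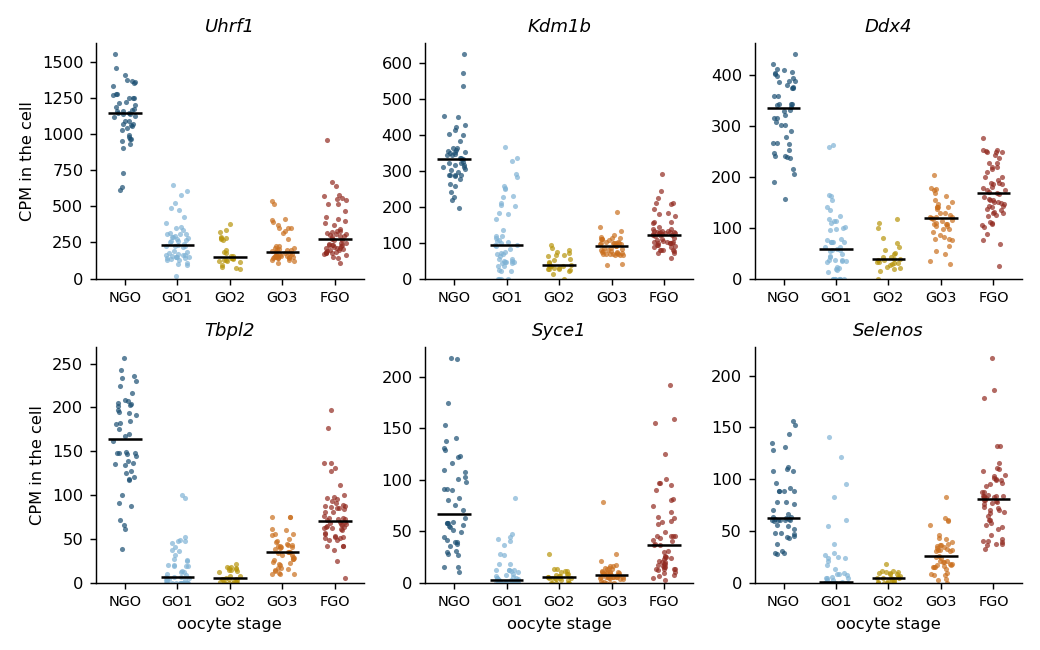
CPM of *Uhrf1*, *Kdm1b*, *Ddx4*, *Tbpl2*, *Syce1* and *Selenos* in each single oocyte (points) by class, with the median over cells (bar). NGO and GO2 cells do not overlap for any of the genes but *Syce1*, whose NGO cells start at 10.3 CPM and whose GO2 cells reach 27.5 CPM, and *Selenos* in FGO has a median of 81.3 CPM against 62.98 in NGO.

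*Selenos* (chr7:73224535-73234298, plus strand) made the largest return. It encodes a selenoprotein of the endoplasmic reticulum membrane that takes part in the removal of misfolded proteins. It had 72.7, 8.45, 5.53, 25.8 and 69.5 CPM, a 12.6-fold (95% counting interval 10.6 to 15.02) increase from GO2 to FGO that ended at 95.6% of NGO. Single cells held 28.01 to 156.1 CPM (median 62.98) in NGO, 0 to 18.2 CPM (median 4.32) in GO2 with 6 of 26 at 0, and 32.5 to 217 CPM (median 81.3) in FGO. Every FGO cell exceeded every GO2 cell and the lowest NGO cell. The next largest returns belonged to 3 regulators of transcription, *Tbpl2*, the SMAD corepressor *Tgif1* and *Id3*, which blocks helix-loop-helix factors. *Tgif1* had 126.6, 13.8, 10.9, 47.3 and 79.5 CPM, and *Id3* had 185, 12.9, 12.8, 43.1 and 83.4 CPM. *Hsd17b10*, a mitochondrial dehydrogenase that is also part of mitochondrial RNase P, had 469, 34.8, 37.3, 77.3 and 218 CPM, with single FGO cells at 70.1 to 1191 CPM (median 319.6). The other genes among the 10 largest returns were *Kifap3* (kinesin-2 cargo adaptor, 5.86-fold), *Ifi30* (lysosomal thiol reductase, 5.48-fold), *Snapc2* (small nuclear RNA transcription, 5.28-fold), *Chchd4* (import into the mitochondrial intermembrane space, 4.96-fold) and *Map7d1* (microtubule binding, 4.89-fold). The GO2 sums of these 10 genes were small, at most 931 UMIs, and *Ifi30* did not meet the rule under 4 of the 7 other weightings and scalings.

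The timing of the return differed between genes. At one end, *Syce1*, *Kifap3*, *Dpf3*, the nucleolar helicase *Ddx27* and *Sltm*, a nuclear RNA-binding protein, were still at 9.26% to 13.7% of NGO in GO3. *Dpf3* had 292, 47.1, 42.7, 38.3 and 102.5 CPM, so the whole of its return fell between GO3 and FGO. At the other end, *Uchl4*, *Tfam*, *B3gnt2*, *Ddx6* and *C1d* had reached 50.6% to 67.8% of NGO by GO3. *Tfam*, which packages and transcribes mitochondrial DNA, had 121.3, 38.01, 28.3, 69.03 and 66.2 CPM, and *B3gnt2*, a glycosyltransferase, had 121.8, 40.2, 27.3, 66.9 and 64.3 CPM, both level after GO3. *Uchl4*, a ubiquitin hydrolase, had 55.3, 13.7, 11.6, 37.5 and 26.4 CPM and was the one gene to fall clearly from GO3 to FGO. *C1d*, a cofactor of the nuclear exosome, had 109.3, 17.6, 15.97, 55.3 and 72.3 CPM. In the plot of GO3 against FGO, *Tfam* and *B3gnt2* lie near the diagonal, *Uchl4* below it and *C1d* above it. *Ddx6*, *Tfam*, *B3gnt2* and *Uchl4* did not meet the rule with DESeq2 size factors or TMM.

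**Figure D4:**
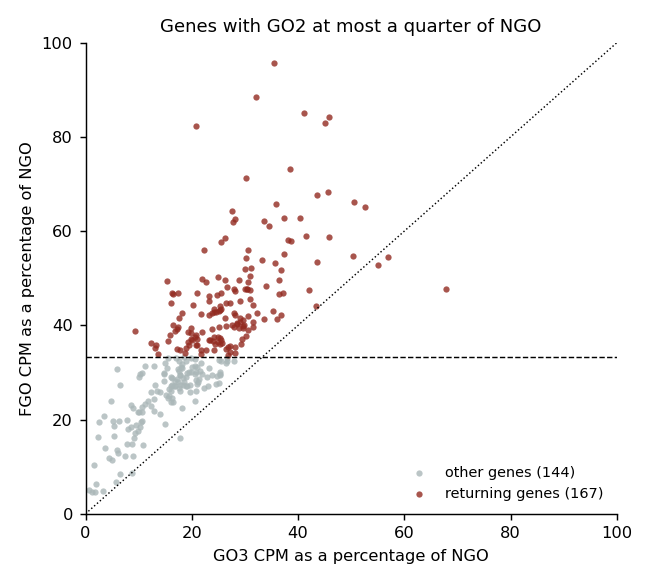
FGO against GO3, each as a percentage of NGO, for the 167 returning genes and the other genes that also had GO2 at most NGO/4 but FGO under NGO/3 (dashed line). Points above the dotted diagonal were higher in FGO than in GO3, which holds for 164 of the 167, and the points run across the dashed line without a gap.

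Sorted by known role, after their values had been seen, all but 53 of the 167 genes fell into 10 groups. The genes of each group were chosen for a low in GO2 and a return in FGO, so the course shared by the groups follows from the choice and says nothing of the roles. From NGO to FGO the 8 genes of protein folding summed to 6332, 1387, 1212, 1748 and 2965 CPM. The 14 genes of the ribosome and translation summed to 4592, 1082, 862, 1173 and 1931 CPM, and the 11 genes of RNA helicases and RNA binding to 1951, 440.3, 382, 675 and 929 CPM. The RNA-binding group, which holds *Ddx4*, *Ddx5*, *Ddx6* and the stress granule protein gene *G3bp1*, had come furthest by GO3, at 34.6% of NGO. The 11 chromatin genes summed to 2399.7, 553, 389, 532 and 894 CPM and returned least, to 37.2%, with *Uhrf1* holding much of the sum. The 10 transcription factor genes summed to 2259, 358, 325, 589 and 1032 CPM and had the lowest sum in GO2, 14.4% of NGO. Besides *Tbpl2*, *Id3* and *Tgif1* they include *Stat3*, the cytokine signal transducer, at 576 CPM in NGO, 120.2 in GO2 and 247 in FGO.

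The 10 mitochondrial genes summed to 1980.4, 329, 302, 489 and 906 CPM. They include the ADP/ATP carrier *Slc25a5*, with 532, 126.9, 121.2, 131.7 and 247 CPM, and *Uqcrc1*, a core subunit of respiratory complex III, with 345, 33.3, 34.4, 91.5 and 166 CPM. The 8 genes of ubiquitin and protein turnover summed to 2311, 566, 494, 619 and 1134 CPM and returned furthest, to 49.1% of NGO, most of it *Ube2c*. The 9 genes of the endoplasmic reticulum and Golgi summed to 1158, 273, 236, 341 and 502 CPM. They ranged from the protein glycosylation subunit gene *Rpn2*, which returned 1.46-fold, to *Selenos*. The 18 genes of actin, microtubules and trafficking summed to 2689, 483, 459, 687 and 1172 CPM, and *Afap1*, an actin crosslinking protein, stood out among them with 92.9, 13.4, 18.4, 29.9 and 82.1 CPM. The 15 genes of redox and metabolism summed to 4621, 907, 858, 1079 and 2050.1 CPM. Among these were *Gpx4*, which protects membranes from lipid peroxides, with 492, 106.6, 109.6, 123.7 and 212 CPM, and *Gapdh*, the glycolytic dehydrogenase often used as a reference gene, with 285, 40.6, 32.95, 44.3 and 104.5 CPM. In FGO all 10 groups had sums of 37.2% to 49.1% of NGO.

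**Figure D5:**
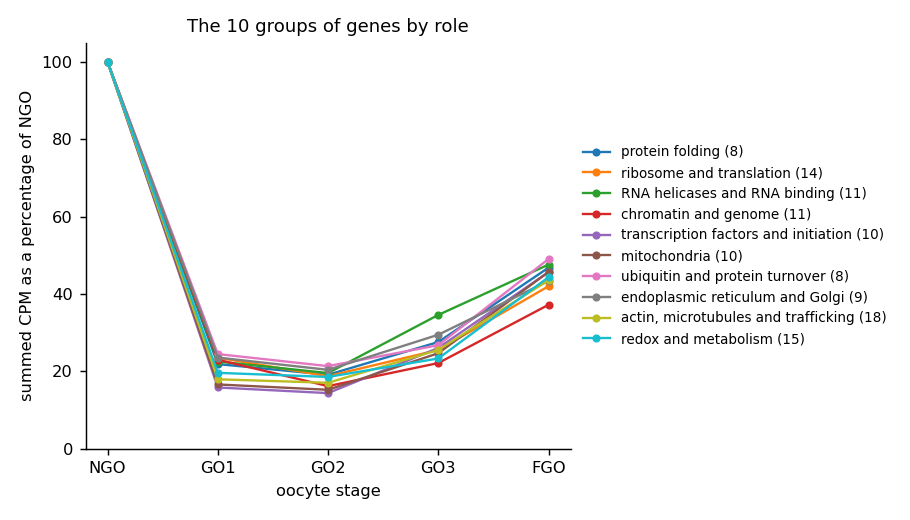
Summed CPM of each of 10 role groups (number of genes in brackets) as a percentage of its NGO sum across the 5 classes. Each line is low in GO2 and higher in FGO since its genes were chosen so, at 14.4% to 21.4% of NGO and at 37.2% (chromatin) to 49.1% (ubiquitin) in FGO.

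The set was looked up in lists of known genes. Of 35 gene lists for pathways and cell types, 22 held a member, and 40 of the 167 genes were on at least 1 list. Chaperones and foldases had 7 of 54 genes with 50 CPM in NGO (*Ppia*, *Ppif*, *Hsp90ab1*, *Hspa4*, *Hsph1*, *Fkbp4* and *Fkbp15*), beside the 4.53% of all such genes. DNA and histone methylation enzymes and their partners had 4 of 18 (*Uhrf1*, *Kdm1b*, *Prmt5* and the deacetylase *Hdac1*), antioxidant enzymes 3 of 20 (*Gpx1*, *Gpx4* and *Prdx6*), tubulins and actins 2 of 18, and E2 enzymes 2 of 18. These counts depend on the processing. Of the chaperone, methylation and antioxidant genes named here, only *Ppia*, *Fkbp15*, *Kdm1b*, *Hdac1* and *Gpx1* met the rule in all 7 other weightings and scalings. Cytoplasmic ribosomal proteins had 4 of 80 (*Rps23*, *Rpl23*, *Rpl3* and *Rps4l*), close to the share of all genes. The median ribosomal protein gene had a log2 ratio of GO2 to NGO of -1.04. Maternal effect and oocyte secreted genes had 3 of 54 (*Uhrf1*, *Kdm1b* and *Ddx6*), oocyte identity genes 1 of 15, germ cell and pluripotency genes 1 of 19, meiotic prophase genes 1 of 12, oocyte transcription factors 1 of 10 and general transcription factors 1 of 21. Single members also came from mitochondrial ribosomal proteins (1 of 65), spliceosome and hnRNP genes (1 of 57), glycolysis (1 of 7), Rab GTPases (1 of 19), nuclear transport (1 of 18) and the nucleolus (1 of 35). Respiratory chain genes had 2 of 78, translation factors 2 of 46 (1 of them *Eef1akmt1*, which modifies such a factor), Zfp zinc finger genes 2 of 30 and solute carriers 2 of 30.

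Other lists had no member, where the 4.53% share of all genes with 50 CPM in NGO would give few or none in lists of this size. There was none among 34 proteasome subunit genes with 50 CPM in NGO, 39 cell cycle kinase, cyclin and APC/C genes, 31 DNA replication genes, 19 aminoacyl-tRNA synthetases, 20 Mediator subunits, 17 RNA polymerase subunits, 17 mitochondrial import genes, 10 kinesins and 9 histone genes. The 13 lists without a member include the 3 lists of markers of other cell types and, since its genes were not in the table, the mitochondrial genome. Some of these lists were near level in the sums, for instance 10361 CPM in NGO, 11305 in GO2 and 10556 in FGO for all proteasome genes measured, while the 85 histone genes went from 7805 CPM in NGO to 21654 in GO2. 

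The rule draws a line through a continuum. Of the 311 genes with 50 CPM in NGO and GO2 at most NGO/4, 34.4% had FGO at 20% to 33.3% of NGO, 19.6% at 33.3% to 40% and 20.9% at 40% to 50%. Just inside the FGO limit lay *Hip1r* (33.7%) and *Uhrf1*, and just outside *Psmd13* (33.3%) and *Grpel2* (33.1%). At the NGO limit, *Hid1* (50.5 CPM) and *Coil* (51.1 CPM) lay inside and *Dhrs7b* (49.8 CPM) and *Uspl1* (49.8 CPM) outside. At the GO2 limit, *Trpm7* (24.9999% of NGO) and *Hspa4* (24.9%) lay inside and *Pkib* (25.1%) and *Tusc2* (25.1%) outside. *Pkib*, an inhibitor of protein kinase A, had 64.5, 18.7, 16.2, 44.3 and 96.8 CPM and so ended above its NGO level.

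The rest of the 311, the comparison genes, which met the same GO2 limit but stayed under NGO/3 in FGO, also rose at the end of growth. Their median GO2 level was 11.6% of NGO, against 18.1% in the returning genes. From GO3 to FGO the median ratio was 1.65 in the returning genes, 1.68 in the comparison genes and 1.09 over all genes with 50 CPM in NGO. A rise after GO3 was therefore seen on both sides of the FGO limit. From GO2 to GO3 the median ratio was 1.53, 1.20 and 1.04, in the same order. The sides differed in how low they had been. In GO1, which the rule did not use, the median was 19.9% of NGO in the returning genes and 13.5% in the comparison genes, and in GO3 27.1% and 16.1%. Every NGO cell exceeded every GO3 cell for 37 of the 167 returning genes and 61 of the comparison genes (22.2% and 42.4%), beside 4.26% of all genes with 50 CPM in NGO. All these shares are descriptions, since NGO enters both the rule and each ratio.

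In fully-grown oocytes most of the 12 members highest in NGO were higher in cells where the other members were high. Over the 56 FGO cells, Spearman's rho between a gene and the sum of the other members was highest for *Ube2c* (0.886), *Hsp90ab1* (0.794) and *Pdia3* (0.770) and lowest for *Actb* (0.329) and *Uhrf1* (0.126). Over the 44 GO3 cells the values ran from -0.0636 for *Rps23* to 0.599 for *Ube2c*, and over the 46 NGO cells from -0.348 for *Ran* to 0.460 for *Eef1a1*. The cells share libraries and differ in depth, so these values describe the cells at hand.

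Features of the gene models, which the rule did not use, were set beside the values. The coding sequence had a median of 1248 bases in the 163 returning genes with a coding sequence in GENCODE vM1, 1329 in the comparison genes and 1086 in all genes with 50 CPM in NGO. Where the 3′ UTR had at least 100 bases, its median in the returning genes was 683 bases long, against 638 and 736 bases. Near-identical copies elsewhere in the genome can take or lend UMIs. By a match of at least 80% of the coding sequence at 90% identity outside the gene itself, 14.7% of the returning genes had such a copy, against 10% and 9.01%. *Gapdh* had 38 copies, *Tuba1b* 7, *Ppia* 6, *Rps23* 5, *Ftl1* 3 and *Ran* 1. Copies were also found for *Rpl3* (3), *Cbx3* (2), and *Pabpc4*, *Hdac1*, *Rpl23* and *Ddx5* (1 each), among other members. The counts of all genes with a copy are less certain. *Hsp90ab1*, *Eef1a1*, *Ddx4*, *Kdm1b*, *Tbpl2* and *Selenos* had none at these limits.

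A fate of stored oocyte messages is set by the cytoplasmic polyadenylation element near the end of the 3′ UTR, to which CPEB proteins bind. Its letters, TTTTAT or TTTTAAT read on the transcript, stood in the last 100 bases of 11.6% of the returning genes, 10.2% of the comparison genes and 18.97% of all genes with 50 CPM in NGO. The GC content of these 3′ UTRs had medians of 44.4%, 46.99% and 43.6%, and its part in the difference was not tested. The polyadenylation hexamer AATAAA or ATTAAA stood there in 86.5%, 84.3% and 82.7%. Of 39 named members with a 3′ UTR of at least 100 bases, 6 held the element, in *B3gnt2*, *Ddx4*, *Eef1a1*, *Hsp90ab1*, *Id3* and *Pdia3*. The sites of *Ddx4* (chr13:113388580-113388607, minus strand, NCBIM37, last exon), *Id3* (chr4:135701248-135701275, plus strand, last exon), *Pdia3* (chr2:121264400-121264423, plus strand, last exon) and the farther of 2 in *Hsp90ab1* (chr17:45704763-45704790, minus strand, last exon) are shown 5′ to 3′ with the element in capitals, since these members differ in role and in the size of their return. A match of letters is not evidence of binding.
Ddx4: caaatgtttgcTTTTATaatatacagat
Id3: tatattaaactTTTTATaaaagttaaca
Pdia3: tattgccctccTTTTATagctaaa
Hsp90ab1: ttttttgtttgTTTTATtttgttctaaa

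Promoter windows of RefSeq (GRCm38.p6, 250 bases before to 50 after the start) were matched by symbol for 79.6% of the genes. This was under 80%, so no share of members with a motif is given. The windows of 5 members are shown because they hold different motifs and CpG contents, *Ppia* (chr11:6415617-6415916, plus strand), *Selenos* (chr7:66079399-66079698, plus strand), *Ddx4* (chr13:112652261-112652560, minus strand), *Kdm1b* (chr13:47043249-47043548, plus strand) and *Tbpl2* (chr2:24096546-24096845, minus strand). Capitals mark the TATA box letters TATAAA on the gene's strand and, on both strands, CCAAT, the GC box GGGCGG and the E-box CACGTG. Over all 32851 windows these were found in 8.32%, 37.4%, 35.7% and 7.15%.
Ppia: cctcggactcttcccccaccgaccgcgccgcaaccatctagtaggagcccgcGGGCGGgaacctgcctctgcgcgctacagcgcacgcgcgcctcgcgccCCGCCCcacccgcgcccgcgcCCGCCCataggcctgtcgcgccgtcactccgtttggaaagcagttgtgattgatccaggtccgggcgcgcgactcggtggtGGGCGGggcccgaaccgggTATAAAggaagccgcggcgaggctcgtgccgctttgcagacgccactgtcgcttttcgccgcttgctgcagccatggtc
Selenos: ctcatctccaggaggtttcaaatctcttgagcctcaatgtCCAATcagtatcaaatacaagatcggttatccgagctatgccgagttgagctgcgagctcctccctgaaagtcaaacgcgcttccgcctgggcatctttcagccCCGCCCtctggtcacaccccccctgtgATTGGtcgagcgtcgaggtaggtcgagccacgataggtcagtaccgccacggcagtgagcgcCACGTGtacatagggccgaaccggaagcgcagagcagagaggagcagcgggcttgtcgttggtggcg
Ddx4: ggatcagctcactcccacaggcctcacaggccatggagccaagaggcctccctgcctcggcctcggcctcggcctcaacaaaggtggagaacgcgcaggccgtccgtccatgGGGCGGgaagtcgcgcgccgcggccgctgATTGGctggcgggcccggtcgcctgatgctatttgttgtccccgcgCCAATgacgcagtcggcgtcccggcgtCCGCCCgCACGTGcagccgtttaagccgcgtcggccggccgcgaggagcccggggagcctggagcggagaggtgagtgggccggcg
Kdm1b: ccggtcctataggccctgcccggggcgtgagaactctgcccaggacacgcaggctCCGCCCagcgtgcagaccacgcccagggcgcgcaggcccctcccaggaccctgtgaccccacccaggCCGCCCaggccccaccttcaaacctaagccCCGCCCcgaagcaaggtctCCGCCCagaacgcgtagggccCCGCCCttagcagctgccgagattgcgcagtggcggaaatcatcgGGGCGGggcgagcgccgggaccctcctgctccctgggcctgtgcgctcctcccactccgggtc
Tbpl2: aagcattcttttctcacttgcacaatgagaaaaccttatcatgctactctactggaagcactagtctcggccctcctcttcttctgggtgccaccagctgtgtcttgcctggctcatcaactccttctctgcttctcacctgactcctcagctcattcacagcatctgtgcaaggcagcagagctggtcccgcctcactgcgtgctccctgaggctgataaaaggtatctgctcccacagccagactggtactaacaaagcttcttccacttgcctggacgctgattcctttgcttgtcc

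*Ppia* held a TATA box that began 29 bases before the start, with 4 GC boxes, and *Kdm1b* held 6 GC boxes and none of the other motifs. *Selenos* and *Ddx4* each held 2 CCAAT boxes and an E-box, which began 17 and 29 bases before the start. *Tbpl2* held none of the 4 motifs as spelled. The number of CpG dinucleotides per 300-base window was 43 in *Ppia*, 38 in *Ddx4*, 26 in *Kdm1b* and 23 in *Selenos*, but 4 in *Tbpl2*, against a median of 7 over all windows. Thus a CpG-poor promoter (*Tbpl2*) and CpG-rich ones stood beside each other in the set. DNA methylation and accessibility at these promoters were not analysed here.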

How the data were processed

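Single oocytes were profiled by RNA-seq with UMIs. The authors sorted reads by cell barcode, mapped them to mouse transcripts of build mm9 (named in the submitters' processing notes), removed duplicates by UMI, filtered the cells and deposited whole-number UMI counts per gene and cell, without normalization. Here the counts were summed per class and scaled to CPM. A class counted as 1 sample, so no p-value was computed. A gene was called between classes at a 2-fold difference with at least 10 CPM in the higher class. Intervals are at 95%, exact Poisson for sums and from the binomial split for ratios, and cover counting error only. A count of 0 allows up to 3 UMIs. Doublets were not called, since oocytes were picked one by one. Depth per class was 24976634 to 64311908 UMIs.

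The members and gene lists were chosen with earlier results of these data known. Named genes were the 12 members highest in NGO, the 10 largest ratios of FGO to GO2, the 5 lowest and 5 highest ratios of GO3 to NGO, members on the oocyte, germ cell, meiosis, maternal and chromatin methylation lists, and the 2 genes on each side of each limit. Other members are named as examples of a list or role group. Alternatives were other weightings of cells, size factors of DESeq2 1.42.0, TMM of edgeR 4.0.16 (both for scaling alone) and other limits. On simulated counts the rule found 197 of 200 planted genes and called 0 of 200 planted misses. The planted genes lay clear of the limits and the simulation had no spread between cells. It therefore checks only that the rule was applied as stated, not how firmly genes near a limit are placed. Gene models were those of GENCODE vM1 (NCBIM37, the same assembly as mm9), matched for 165 of the 167 genes, and copies were searched with minimap2 2.31-r1302. The work used R 4.3.3, Python 3.11.15, scipy 1.17.1, pandas 2.3.3 and numpy 2.4.6. The iscCOOL-seq data were not analysed here.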

Additional observations from a re-analysis of the deposited data

How the results depend on the processing

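The number of genes that met the rule was 167 and depended on its limits and on how cells were weighted. With all cells thinned to 20000 UMIs, which also gives every cell the same weight, it was 278 (166% of the main number), which included 71.3% of the 167. It was 53.3% of the main number with at least 100 CPM in NGO, 186% with 25 CPM and 706% with no minimum beyond 10 UMIs. It was 232% with GO2 at most NGO/3, 62.3% with NGO/5, 24.6% with FGO at least NGO/2, 152.1% with NGO/4, and 45.5% with GO3 in place of GO2. It stayed within 1.5 times the main number under the other alternatives, from 68.3% (DESeq2 size factors) to 146.7% (mean over cells). Over the 7 other weightings and scalings, 63 of the 167 met the rule every time, and 97 did over the 5 weightings. Among the named members, *Hsp90ab1*, *Ran*, *Ube2c*, *Eef1a1*, *Pdia3*, *Pabpc4*, *Ddx6*, *Prmt5*, *Tfam*, *B3gnt2*, *Uchl4*, *Ifi30*, *Hspa4*, *Trpm7*, *Coil*, *Hid1* and *Hip1r* did not meet it with DESeq2 size factors or TMM. Of the other members mentioned, *Gpx4*, *Stat3*, *Slc25a5*, *Rpn2*, *G3bp1*, *Cbx3*, *Parg*, *Commd4*, *Hsph1*, *Ppif*, *Prdx6* and *Rpl3* did not meet it with either scaling. *Uhrf1* and *Hip1r* did not under any of the 5 weightings, and *Chchd4* and *Sltm* did not with thinned cells.

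The summed level moved beyond its counting interval under each of these 7, up in some and down in others, while GO1 and GO3 stayed below NGO and FGO above GO2. With the mean over cells, the median over cells, sums without the 10 deepest cells, thinned cells, 26 cells per class, DESeq2 size factors and TMM, in that order, GO1 over NGO was 0.194, 0.159, 0.175, 0.194, 0.212, 0.225 and 0.234, GO3 over NGO was 0.264, 0.262, 0.261, 0.261, 0.265, 0.297 and 0.317, and FGO over GO2 was 3.04, 3.01, 2.98, 3.08, 2.44, 2.12 and 2.21. All 40 named members kept FGO above GO2 in all 7, a direction that the rule had set on the same counts. Of their 280 ratios of FGO to GO2 under these 7, 192 lay beyond the counting interval of the sums. The counting intervals of single genes therefore do not cover the effect of weighting and scaling. The median log2 ratio of FGO to GO2 over all genes with 50 CPM in NGO was 0.19 in the sums, -0.03 with DESeq2 size factors and 0.03 with TMM, and each return in CPM is to be read beside that shift. No paired analysis was possible because each class is 1 pooled sample. Cells of known library would be needed for an error between replicates.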

Other observations

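Selenoprotein genes, a list drawn up after *Selenos* had been seen, held 4 of the 167 genes among 11 with 50 CPM in NGO, beside 4.53% of all genes at that level. The list was chosen for a member, so its count supports nothing. The 4 members were *Gpx1* (209, 25.2, 27.3, 40.3 and 80.8 CPM), *Gpx4*, *Selenoh* (306, 72.1, 61.9, 63.4 and 116.3 CPM) and *Selenos*. Other selenoprotein genes missed the rule in different ways. *Gpx3*, an extracellular peroxidase, had 131.8, 49.8, 64.2, 70.9 and 145.3 CPM. It too fell and returned, but its GO2 level was 48.7% of NGO. *Txnrd2* met both ratio limits, at 10.5% of NGO in GO2 and 45.4% in FGO, but had only 9.52 CPM in NGO. *Txnrd1*, a thioredoxin reductase, had 100.8, 70.7, 70.8, 77.3 and 73.95 CPM, and *Selenof*, of the endoplasmic reticulum, had 183, 264, 241, 317 and 232 CPM.

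Among the oocyte identity genes, *Figla*, the transcription factor that switches on the zona pellucida genes, and its target *Zp2* met the NGO and GO2 limits but missed the FGO limit. *Figla* had 597, 65.5, 58.8, 102.3 and 170.5 CPM, and *Zp2* had 4249.8, 827, 639.8, 713 and 1199.9 CPM. The other identity genes took mixed courses. *Gdf9*, a growth factor that oocytes secrete, had 4919, 4755, 5524, 4970.5 and 5681 CPM, and *Dazl*, an RNA-binding protein of germ cells, had 483, 483, 475, 453 and 462 CPM. Several, such as *Zp1*, *Zp3*, *Npm2*, *Zar1* and *Nlrp5*, were lower in GO2 than in NGO and higher again in FGO. *Bmp15* and *Oosp1* were above NGO in all later classes. All 15 identity genes together had 34698, 18801.8, 20420.5, 21789.2 and 27530.4 CPM.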
